A study of Mus musculus with 4 samples.

Results

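The genes described here encode the machinery of fatty acid oxidation and of the peroxisome. They were listed by name as a functional group of 36 genes, at a time when earlier results of these data were known. Of these, 35 had a probe set annotated to 1 gene symbol, out of 18193 genes named in this way in the whole series. The remaining one, Cpt1b, shares its probe set with other genes and was not given a value. The group comprised 17 genes of mitochondrial oxidation, 8 of peroxisomal oxidation and 10 peroxins, the proteins that build peroxisomes.

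Total RNA came from mouse DFAT cells, which are fibroblast-like cells obtained by de-differentiation of mature fat cells, maintained in serum-containing DMEM. One array each was hybridised with RNA of cells given DMSO, the solvent, cells given Y-27632, an inhibitor of the ROCK kinases that drive actomyosin contraction, cells transfected with a control siRNA, and cells transfected with an siRNA against Mkl1. The labels give no dose, duration, clone or strain. With 1 array per group there is no replicate error, no test is possible, and every difference below compares single arrays.

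Fatty acids are shortened in mitochondria by a repeating cycle of dehydrogenation, hydration, a second dehydrogenation and thiolysis, after the acyl chain has been carried in as a carnitine ester. Peroxisomes run a parallel cycle on very long and branched chains with their own enzymes, and import those enzymes folded from the cytosol with the help of peroxins. In fat cells many of these genes are known targets of the PPAR nuclear receptors, and peroxisomes are known to multiply as fat cells form.

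Values are log2 signals, so that a difference of 1 is a 2-fold ratio. A gene counted as measured when at least 1 array reached a signal of 5.69, the median over all arrays and probe sets, which 11600 genes and all 35 members did. Ehhadh reached that level on 2 arrays, Y-27632 and Mkl1 siRNA, and every other member did so on all 4. A member was counted as higher or lower from 1.5-fold, or 0.58 on the log2 scale. The array medians ran from 5.67 to 5.71, and the signal of the targeted transcript (listed under its present symbol Mrtfa) was 8.55 with control siRNA and 7.70 with Mkl1 siRNA. All 7 fibroblast or stromal markers were measured, with signals from 12.55 to 14.43 in DMSO, whereas 5 of 6 macrophage or leukocyte markers, 4 of 5 endothelial markers and 4 of 5 skeletal myoblast markers did not reach the filter on any array. Of 5 osteoblast or chondrocyte markers 3 reached it, Sp7, Col2a1 and Sox9. Sox9, a transcription factor of cartilage precursors, had signals of 8.31 with DMSO, 8.66 with Y-27632, 8.11 with control siRNA and 7.06 with Mkl1 siRNA.

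The promoter windows of the members are shown first, because PPAR receptors bind DNA at repeats of the half-site AGGTCA. RefSeq windows (GRCm38.p6, 250 bases before to 50 after the gene start, 300 bases in all) were found for 28 members. None was matched for Abcd2, Acaa2, Cpt1b, Crat, Decr1, Hsd17b4, Pex2 and Pex19. The full PPAR element, the half-site repeated in the same direction after any 1 base, was searched on both strands. It was in no window of the members and in 3 of the 9356 measured genes with a window. An exact match is so rare that its lack among 28 members carries no information. Elements with other letters or outside the windows were not searched. The half-site alone, which the full element contains, was in the windows of 4 members, Acadm, Acadvl, Cpt1a and Echs1. That is 14.3% of the members, against 14.6% of the measured genes and 18.1% of all genes with a window. These stretches show where it lies, on the strand of the gene and with the half-site or its reverse complement in capitals.
Acadm, chr3:153944860-153944893, minus strand: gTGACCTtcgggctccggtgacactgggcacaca
Acadvl, chr11:70015483-70015542, minus strand: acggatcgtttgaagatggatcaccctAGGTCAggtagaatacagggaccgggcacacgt
Cpt1a, chr19:3323180-3323239, plus strand: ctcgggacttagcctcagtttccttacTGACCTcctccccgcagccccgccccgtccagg
Echs1, chr7:140116472-140116531, minus strand: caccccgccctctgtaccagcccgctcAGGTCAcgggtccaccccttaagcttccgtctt

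The Acadm stretch is shorter because its half-site begins at the second base of the window. Ehhadh and Pex11a, which had the largest differences with Mkl1 siRNA among the members, had no AGGTCA in their windows. Their windows are shown whole, with matches to GGGCGG, the core of the GC box, and its reverse complement in capitals.
Ehhadh, chr16:21787785-21788084, minus strand: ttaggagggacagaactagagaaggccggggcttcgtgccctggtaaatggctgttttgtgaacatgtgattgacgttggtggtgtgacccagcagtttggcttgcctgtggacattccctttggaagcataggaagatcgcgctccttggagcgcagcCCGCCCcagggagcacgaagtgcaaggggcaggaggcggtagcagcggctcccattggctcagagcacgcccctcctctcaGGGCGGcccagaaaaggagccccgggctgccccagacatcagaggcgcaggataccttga
Pex11a, chr7:79743082-79743381, minus strand: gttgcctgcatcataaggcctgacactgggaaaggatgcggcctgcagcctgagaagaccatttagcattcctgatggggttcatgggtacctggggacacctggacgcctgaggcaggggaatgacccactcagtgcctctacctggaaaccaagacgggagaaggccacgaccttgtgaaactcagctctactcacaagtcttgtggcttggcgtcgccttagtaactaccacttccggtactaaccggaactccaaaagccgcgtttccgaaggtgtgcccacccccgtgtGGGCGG

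GGGCGG was present in the windows of 23 of the 28 members, or 82.1%, against 68.7% of measured genes and 38.2% of all genes with a window. This motif was chosen after the windows had been seen. A match describes the letters of the window and is not evidence of binding. Nor is the lack of a match evidence against binding.

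As a group the members stood above their controls by small amounts. With Y-27632, 32 of 35 members were above DMSO, with a median difference of 0.23, where 50.4% of all measured genes were above 0 and the median of all genes was 0.00. With Mkl1 siRNA, 28 of 35 were above control siRNA, with a median of 0.34, against 50.1% and a median of 0.00. At least 1.5-fold higher were 4 members with Y-27632 (3% of all genes) and 8 with Mkl1 siRNA (5.42% of all genes). Both counts include Ehhadh, whose control signals were below the filter. Without it they were 3 and 7 of 34 members. No member was 1.5-fold lower in either comparison, where 1.33% and 5.91% of all genes were. At 2-fold only Ehhadh was counted, with Mkl1 siRNA and at 1.002, just past the limit, against 1.79% of all genes. With Y-27632 no member reached 2-fold, against 1.27%. Most of the members therefore differed by less than the 1.5-fold limit while lying on the higher side.

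The control arrays themselves differed in the same direction. Control siRNA was above DMSO for 24 of 35 members, against 48.5% of all genes, with a median of 0.17, and Abcd2 was 1.5-fold higher (3.42% of all genes). Measured against the other control, Y-27632 was above control siRNA for 26 members with a median of 0.16, where 52.4% of all genes were above 0. Mkl1 siRNA was above DMSO for 32 members with a median of 0.47, where 49.1% of all genes were. In that last comparison 14 members were 1.5-fold higher (7.4% of all genes), whereas for Y-27632 against control siRNA only Ehhadh was (5.7%). Both counts thus changed with the control array used.

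A measure that does not depend on the choice of control asks whether both treated arrays lie above both control arrays. This held for 22 of the 35 members, or 62.9%, where 17.2% of all measured genes did so. Without Ehhadh, which reached the filter only on the treated arrays, it held for 21 of 34, or 61.8%. No member had both treated arrays below both controls, where 15.6% of all genes did. This measure was chosen after the values had been seen. The 22 comprised 13 of 17 mitochondrial genes, 4 of 8 peroxisomal oxidation genes and 5 of 10 peroxins, and the gap between the lowest treated and the highest control array was as small as 0.005 for Abcd3.

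**Figure D1:**
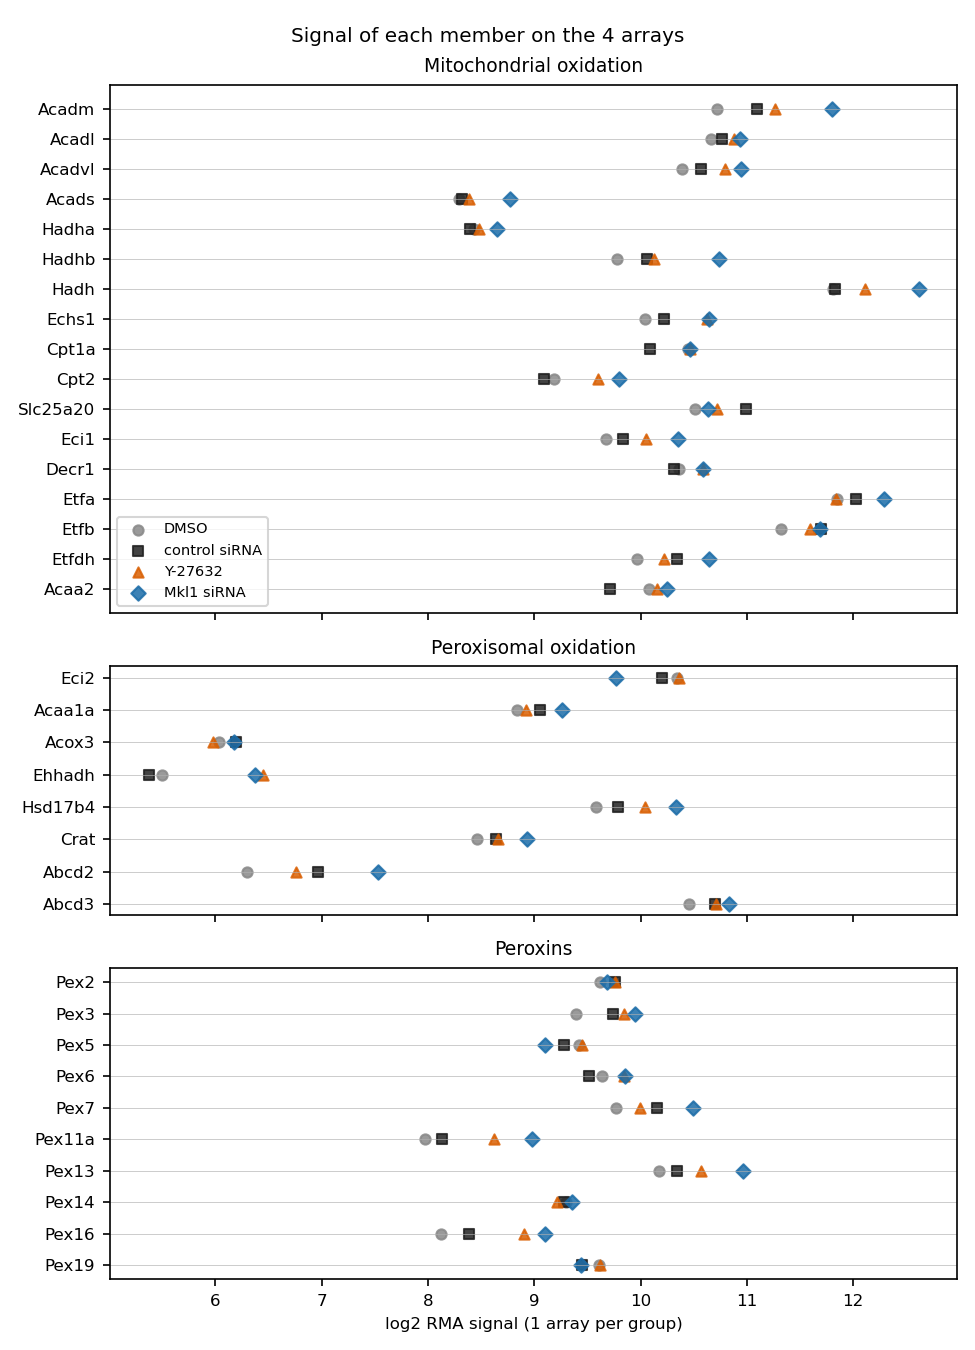
Log2 signal of each of the 35 members on the 4 arrays, 1 point per array, in 3 panels for mitochondrial oxidation, peroxisomal oxidation and peroxins. Mkl1 siRNA (diamonds) is the rightmost point for most mitochondrial genes but not for Slc25a20, and in the peroxisomal panel Ehhadh shows both treated arrays near 6.4 with both controls near 5.4. Levels of different genes are read by different probes and are not comparable.

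Entry of fatty acids into mitochondria uses 3 proteins. Cpt1a, the carnitine palmitoyltransferase of the outer membrane and the main control point of oxidation, had log2 signals of 10.44 with DMSO, 10.47 with Y-27632, 10.09 with control siRNA and 10.47 with Mkl1 siRNA. On this strongest probe set the 3 arrays other than control siRNA were alike, so the difference of 0.38 with Mkl1 siRNA became 0.02 against DMSO. The other probe sets of Cpt1a gave 0.24 and 0.22 for Y-27632, and 0.16 and 0.11 for Mkl1 siRNA against DMSO. Cpt2, the inner-membrane enzyme that rebuilds the acyl-CoA, had signals of 9.19 with DMSO, 9.60 with Y-27632, 9.09 with control siRNA and 9.80 with Mkl1 siRNA. Both treated arrays were above both controls, by 0.41 or more, and the ratios were 1.33 with Y-27632 and 1.63 with Mkl1 siRNA. Slc25a20, the carrier that exchanges acylcarnitines for carnitine, went the other way with the siRNA, at 10.99 with control siRNA and 10.63 with Mkl1 siRNA. Its DMSO signal was 10.51 and its Y-27632 signal 10.72, so control siRNA was the highest array, and the second probe set gave the same signs (-0.48 with Mkl1 siRNA and 0.12 with Y-27632).

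The first step of the cycle is made by acyl-CoA dehydrogenases that divide the chain lengths among them. Acadm, for medium chains, had signals of 10.72 with DMSO, 11.26 with Y-27632, 11.09 with control siRNA and 11.81 with Mkl1 siRNA. It was 1.64-fold higher with Mkl1 siRNA and, at 1.45-fold, just short of the limit with Y-27632, and control siRNA itself exceeded DMSO by 0.37. Acadvl, for very long chains, was higher by 0.41 with Y-27632 and by 0.38 with Mkl1 siRNA. Acads, for short chains, differed by 0.45 with Mkl1 siRNA and by 0.09 with Y-27632. Acadl, for long chains, differed by 0.21 with Y-27632 and 0.17 with Mkl1 siRNA. Its weaker probe set, with a mean signal of 3.66, differed by -0.06 and -0.08. All 4 dehydrogenases had both treated arrays above both controls.

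The largest difference of the mitochondrial class was at a later step of the cycle in each comparison, Echs1 with Y-27632 and Hadh with Mkl1 siRNA. Acadm, of the first step, came next in both. Hadh, the short-chain hydroxyacyl-CoA dehydrogenase, had signals of 11.81 with DMSO, 12.11 with Y-27632, 11.83 with control siRNA and 12.62 with Mkl1 siRNA. The control arrays were nearly equal and the Mkl1 siRNA array stood apart, with a ratio of 1.73 and with 3 probe sets between 0.78 and 0.89. Echs1, the short-chain enoyl-CoA hydratase, had signals of 10.04 with DMSO, 10.62 with Y-27632, 10.22 with control siRNA and 10.65 with Mkl1 siRNA. Both treated arrays were alike and at least 0.406 above the controls, and Echs1 was the only mitochondrial gene counted with Y-27632, at 0.587, barely past the limit of 0.585.

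The trifunctional protein carries out the last 3 steps on long chains. Its beta subunit Hadhb had signals of 9.78 with DMSO, 10.12 with Y-27632, 10.06 with control siRNA and 10.74 with Mkl1 siRNA. The Mkl1 siRNA array was highest, by 1.60-fold over its control, while Y-27632 lay 0.06 above control siRNA. One weak Hadhb probe set gave 0.11 in place of 0.68 with Mkl1 siRNA. The alpha subunit Hadha was higher by 0.25 with Mkl1 siRNA and by 0.05 with Y-27632. Acaa2, the mitochondrial thiolase, was higher by 0.54 with Mkl1 siRNA, but its control siRNA array was 0.37 below DMSO, and the difference against DMSO was 0.17.

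Auxiliary enzymes and electron acceptors complete the mitochondrial class. Eci1, an isomerase that prepares unsaturated chains for the cycle, was higher by 0.38 with Y-27632 and by 0.52 with Mkl1 siRNA, and Decr1, a reductase for the same purpose, by 0.23 and 0.27. The electron transfer flavoprotein takes up the electrons of the dehydrogenases. Its subunit Etfa differed by -0.01 with Y-27632 and by 0.27 with Mkl1 siRNA, and Etfb by 0.27 and -0.00. Etfdh, which passes these electrons on to ubiquinone, differed by 0.25 and 0.30 on its strongest probe set. The weaker probe set of Etfdh, with a mean signal of 3.41, gave -0.49 and -0.04. For Etfb and Etfdh the control siRNA array was above DMSO by 0.37 and 0.38, more than either treatment difference, and these genes with Etfa and Slc25a20 were the 4 mitochondrial members whose treated arrays did not clear both controls.

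In the peroxisomal class Ehhadh encodes the L-bifunctional enzyme, which combines hydratase and dehydrogenase activity. Its log2 signals were 5.50 with DMSO, 6.45 with Y-27632, 5.37 with control siRNA and 6.37 with Mkl1 siRNA. Both treated arrays were above both controls. Y-27632 gave a ratio of 1.93 and Mkl1 siRNA one of 2.002. These ratios are taken against control signals below the filter of 5.69, and 1 probe set read the gene.

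Hsd17b4, the D-bifunctional enzyme that serves the same steps for very long and branched chains, had signals of 9.58 with DMSO, 10.05 with Y-27632, 9.79 with control siRNA and 10.33 with Mkl1 siRNA. It was higher by 0.47 and 0.54, and its other probe set by 0.28 and 0.56. Acaa1a, the peroxisomal thiolase, differed by 0.08 with Y-27632 and 0.20 with Mkl1 siRNA, while its weaker probe set gave 0.48 and 0.71. Acox3, an acyl-CoA oxidase for branched chains, differed by -0.05 and -0.02 on its strongest probe set. By that reading it was the only member below its control in both comparisons, but its weaker probe set gave 0.14 and 0.02. Eci2, an isomerase found in peroxisomes and mitochondria, had signals of 10.34 with DMSO, 10.36 with Y-27632, 10.20 with control siRNA and 9.76 with Mkl1 siRNA. The Mkl1 siRNA array was the lowest by 0.44, the largest difference downward of any member in that comparison.

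Crat, the carnitine acetyltransferase of both organelles, was higher by 0.19 and 0.29, but its 3 probe sets ran from 0.12 to 0.81 with Y-27632 and from -0.23 to 0.42 with Mkl1 siRNA. The membrane transporters load acyl-CoAs into the peroxisome. Abcd2, for very long chains, had signals of 6.29 with DMSO, 6.76 with Y-27632, 6.97 with control siRNA and 7.53 with Mkl1 siRNA. Both siRNA arrays were above both others, control siRNA exceeded DMSO by 0.67, and the lowest and highest of 4 probe sets gave 0.01 and 0.46 with Y-27632 and 0.43 and 0.82 with Mkl1 siRNA. Abcd3 differed by 0.25 and 0.13.

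**Figure D2:**
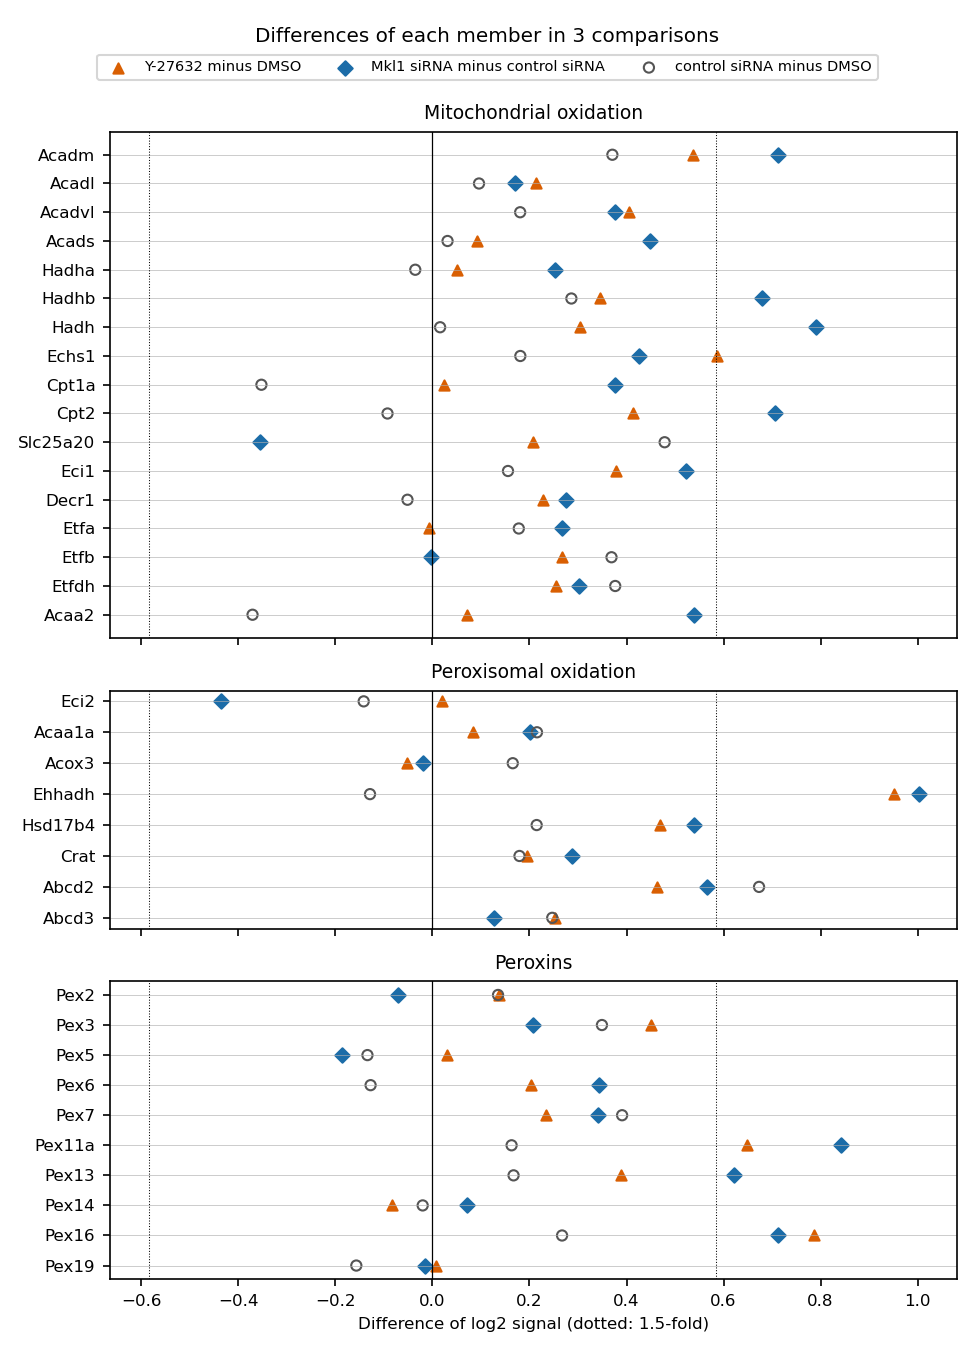
Difference of log2 signal for each member in 3 comparisons, Y-27632 minus DMSO (triangles), Mkl1 siRNA minus control siRNA (diamonds) and control siRNA minus DMSO (open circles), with dotted lines at 1.5-fold. Filled points lie mostly right of 0, 4 triangles and 8 diamonds reach the line, and the open circles reach from -0.37 for Acaa2 to 0.67 for Abcd2.

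Differences of the peroxins reached from -0.08 (Pex14) to 0.79 (Pex16) for Y-27632 and from -0.19 (Pex5) to 0.84 (Pex11a) for Mkl1 siRNA. Pex11a promotes the division of peroxisomes. Its log2 signals were 7.97 with DMSO, 8.62 with Y-27632, 8.13 with control siRNA and 8.98 with Mkl1 siRNA. Both treated arrays were at least 0.48 above the controls, the ratios were 1.57 and 1.79, and the other probe set gave 0.64 and 1.14 although it placed control siRNA 0.55 below DMSO.

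Membrane assembly depends on Pex3, Pex16 and Pex19, which insert peroxisomal membrane proteins. Pex16 had signals of 8.12 with DMSO, 8.90 with Y-27632, 8.39 with control siRNA and 9.10 with Mkl1 siRNA. Both treated arrays were above both controls by 0.519 or more, at ratios of 1.72 and 1.64, but the weaker probe set of Pex16 gave -0.24 with Y-27632 and 0.31 with Mkl1 siRNA. Pex3 was higher by 0.45 with Y-27632 and 0.21 with Mkl1 siRNA, but its control siRNA array was 0.35 above DMSO and Y-27632 lay only 0.10 above control siRNA. Pex19, the cytosolic chaperone of this route, differed by 0.01 and -0.02.

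Import of matrix enzymes begins with the receptors Pex5 and Pex7, which read the C-terminal and the N-terminal targeting signal. Pex5 was at 0.03 after Y-27632 and -0.19 after Mkl1 siRNA, and its Mkl1 siRNA array was the lowest of the 4. The weaker probe set of Pex5 gave -0.14 and 0.01, with control siRNA as the lowest array. Pex7 was higher by 0.23 and 0.34, while control siRNA exceeded DMSO by 0.39. At the docking site, Pex13 had signals of 10.18 with DMSO, 10.56 with Y-27632, 10.34 with control siRNA and 10.96 with Mkl1 siRNA, and its partner Pex14 differed by only -0.08 and 0.07. Pex13 was 1.54-fold higher with Mkl1 siRNA and its other probe set gave 0.68, so the docking partners differed unequally.

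Receptor recycling uses the ubiquitin ligase subunit Pex2 and the ATPase Pex6. Pex2 differed by 0.14 and -0.07, while its weaker probe set gave -0.13 and -0.17. Pex6 differed by 0.20 and 0.34 on its strongest probe set, and the 5 probe sets ran from 0.00 to 0.20 with Y-27632 and from -0.04 to 0.34 with Mkl1 siRNA.

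The classes had similar medians with Y-27632, 0.25 for mitochondrial oxidation, 0.22 for peroxisomal oxidation and 0.22 for peroxins. With Mkl1 siRNA they were 0.38, 0.24 and 0.27. Against the other control array they were 0.17, 0.01 and 0.16 for Y-27632 and 0.48, 0.44 and 0.39 for Mkl1 siRNA. Between the controls they were 0.16, 0.20 and 0.15, so for peroxisomal oxidation the Y-27632 median was near that of the control difference. With probe sets ending in _s_at, _x_at or _a_at left out, the peroxin medians were 0.03 with Y-27632 and 0.07 with Mkl1 siRNA over 9 genes. In that setting Pex16, Pex6 and Pex2 were read by weaker probe sets and Pex3 was not read.

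**Figure D3:**
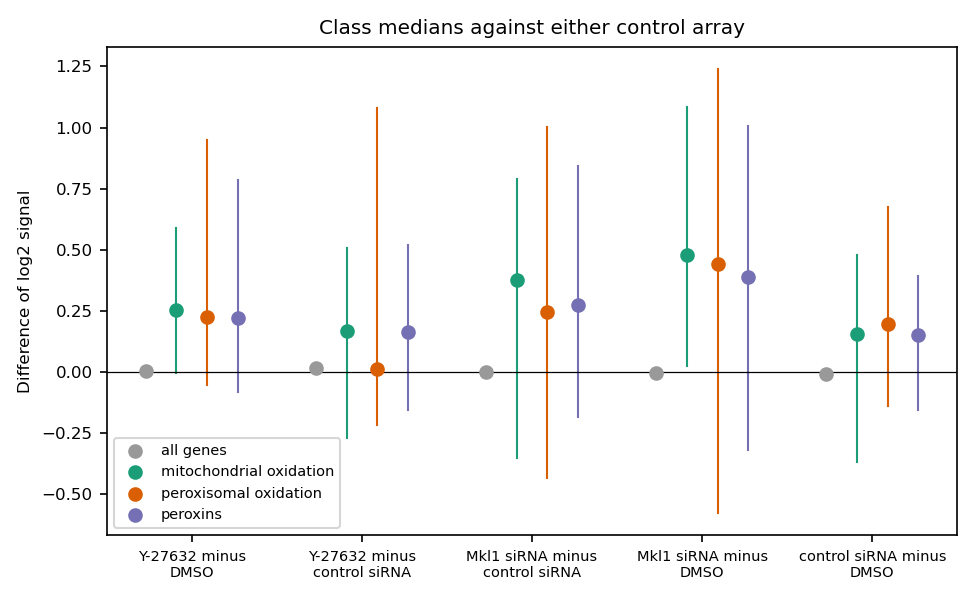
Median difference of log2 signal (points) and lowest to highest member (lines) for each class in 5 comparisons, with the median of all 11600 measured genes in grey. All class medians lie above the grey points except that of peroxisomal oxidation for Y-27632 minus control siRNA, at 0.01 against 0.02.

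The comparisons of Y-27632 with DMSO and of Mkl1 siRNA with control siRNA share no array. Above 0 in both were 26 of the 35 members, where 29.1% of all genes were. Ehhadh, Pex11a and Pex16 were 1.5-fold higher in both, where 1.53% of all genes were; these are 3 of the 4 members counted with Y-27632 and 3 of the 8 counted with Mkl1 siRNA. Without Ehhadh, whose control signals are below the filter, 2 of 34 members remain. The difference was larger with Mkl1 siRNA for 23 of the 35 members. The share over all genes was not computed for this count. Among all genes, 5.42% were 1.5-fold higher with Mkl1 siRNA and 3% with Y-27632. Across the 35 members the Pearson correlation of both differences was 0.70 and the Spearman correlation 0.71, and across all measured genes they were 0.39 and 0.26. By class they were 0.35 and 0.48 for mitochondrial oxidation, 0.91 and 0.88 for peroxisomal oxidation, and 0.85 and 0.79 for peroxins. The Pearson value of the mitochondrial class was thus below that of all genes. The values for all members and for peroxisomal oxidation include Ehhadh. These correlations are across genes, which are not independent replicates, and all 4 arrays were normalised to nearly equal distributions. Of the 8 members with opposite signs, Slc25a20 (0.21 and -0.35) and Eci2 (0.02 and -0.44) lay furthest below 0 with Mkl1 siRNA.

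**Figure D4:**
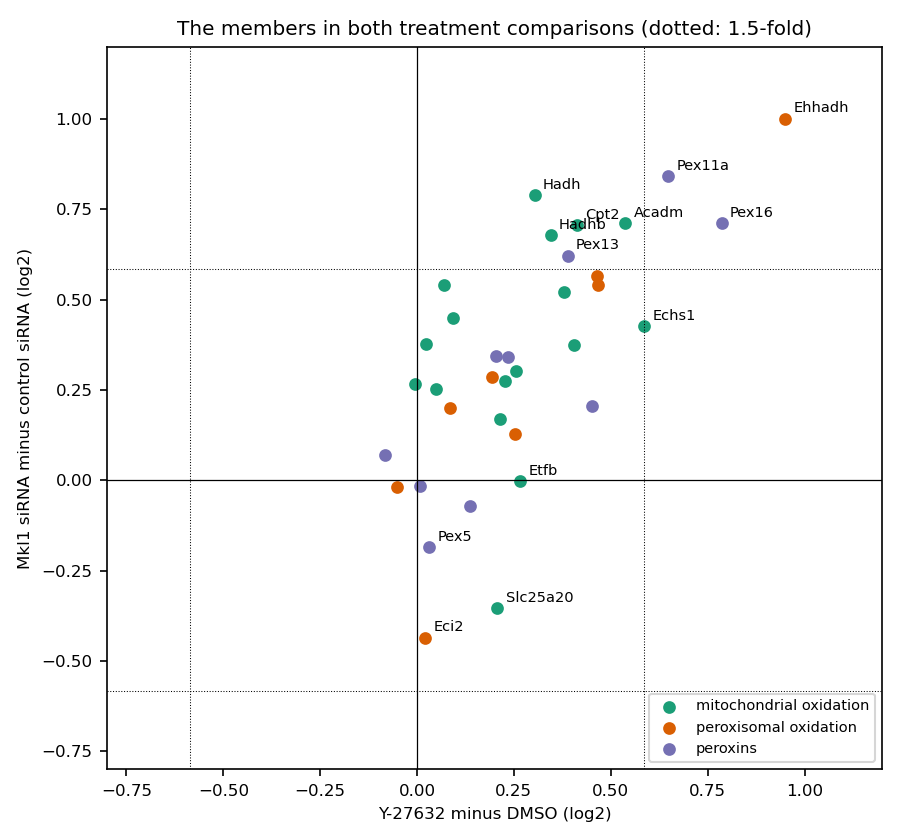
Difference with Y-27632 (horizontal axis, log2) against difference with Mkl1 siRNA (vertical axis, log2) for the 35 members, coloured by class, with dotted lines at 1.5-fold. Ehhadh, Pex11a and Pex16 lie past both dotted lines, and Slc25a20 and Eci2 lie lowest.

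Other genes of the same routes, from lists drawn up beside the members, were examined in the same way. Of 18 further mitochondrial genes measured, 1 was 1.5-fold higher with Y-27632 (3% of all genes) and 3 with Mkl1 siRNA (5.42% of all genes). None was 1.5-fold lower, where 1.33% and 5.91% of all genes were, and the medians were 0.04 and 0.20. Acad11, an acyl-CoA dehydrogenase, was higher by 0.79 and 0.78, with signals of 8.26 with DMSO, 9.05 with Y-27632, 8.77 with control siRNA and 9.55 with Mkl1 siRNA. Pcca, a subunit of propionyl-CoA carboxylase, differed by 0.39 and 0.68 and Mmut, the mutase further along the same route, by 0.22 and 0.50, but the weaker probe set of Pcca gave -0.40 and -0.17 and those of Mmut reached down to -0.08 and 0.05. The lowest mean of both differences was that of Acad10, at -0.44 and -0.12, followed by the thioesterase Acot13 at 0.04 and -0.43.

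Of 25 further peroxisomal enzymes and transporters measured, 2 were 1.5-fold higher with Y-27632 (3% of all genes) and 4 with Mkl1 siRNA (5.42% of all genes). None was 1.5-fold lower, where 1.33% and 5.91% of all genes were, and the medians were 0.27 and 0.22. Between the controls that median was 0.17. Scp2, a thiolase and sterol carrier, had signals of 11.03 with DMSO, 11.70 with Y-27632, 11.35 with control siRNA and 12.07 with Mkl1 siRNA. Cat, the catalase that breaks down the hydrogen peroxide of this pathway, was higher by 0.49 and 0.64. For both genes both treated arrays were above both controls. Ephx2, an epoxide hydrolase, was higher by 1.07 and 1.56, but control siRNA was 1.16 below DMSO on the log2 scale. The lowest means were those of the transporter Abcd4, at -0.06 and -0.32, and the thioesterase Acot3, at -0.07 and -0.16.

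Further peroxins and division factors showed no member 1.5-fold higher among the 7 measured, where 3% and 5.42% of all genes were. None was 1.5-fold lower either, where 1.33% and 5.91% of all genes were, and the medians were 0.07 and 0.15. The ubiquitin ligase subunit Pex10 differed by 0.16 and 0.39, Pex26, the membrane anchor of the export ATPases, by 0.16 and 0.38, and Pex11g by 0.35 and 0.15. Dnm1l, the dynamin-like GTPase that severs mitochondria and peroxisomes, differed by 0.05 and 0.15, and its partner Fis1 by 0.05 and -0.17. Pex11a, at 0.65 and 0.84, thus differed by more than Pex11g, Dnm1l or Fis1 on these arrays, without replicates to test it.

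Among regulators of the pathway, those with the largest differences were the fat cell receptor and one coactivator. Pparg, the nuclear receptor of fat cell formation, had signals of 8.81 with DMSO, 10.03 with Y-27632, 9.11 with control siRNA and 10.96 with Mkl1 siRNA. Ppargc1b, a coactivator of oxidative genes, had signals of 5.94 with DMSO, 7.79 with Y-27632, 5.73 with control siRNA and 8.89 with Mkl1 siRNA. In both genes both treated arrays were above both controls. Lpin1, a phosphatidate phosphatase and coactivator, was higher by 0.93 and 0.94, while control siRNA exceeded DMSO by 0.67 and Y-27632 exceeded control siRNA by 0.27. Ppara and Ppargc1a, the receptor and coactivator best known for driving oxidation in liver and brown fat, stayed below the filter on all 4 arrays, with highest signals of 4.94 and 3.84, as did Acacb, which makes the malonyl-CoA that inhibits Cpt1a, at 5.46. Ppard differed by 0.33 and 0.03. The lowest means in this list were those of Pdk4, a kinase that holds back pyruvate oxidation, at -0.56 and -0.15, and the retinoid receptor Rxrg at -0.03 and -0.26. Over the 17 regulators measured, Y-27632 gave 3 that were 1.5-fold higher (3% of all genes) and Mkl1 siRNA 4 (5.42% of all genes). The 4 were Pparg, Ppargc1b, Lpin1 and Nrip1. Nrip1 differed by 0.51 and 0.98, with both treated arrays above both controls. Its 6 probe sets ran from -0.02 to 0.57 with Y-27632 and from -0.06 to 1.05 with Mkl1 siRNA. None was 1.5-fold lower, where 1.33% and 5.91% of all genes were.

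Markers of mature fat cells were higher on both treated arrays. All 8 on the list were above the control in both comparisons, where 29.1% of all genes were. Their medians were 2.89 and 2.43, with a median of -0.11 between the controls. Their summed log2 signal was 69.8 with DMSO and 70.3 with control siRNA, against 88.8 with Y-27632 and 88.6 with Mkl1 siRNA. Adipoq, the adiponectin gene, had signals of 10.14 with DMSO, 13.69 with Y-27632, 10.03 with control siRNA and 13.86 with Mkl1 siRNA, and Lpl, the lipoprotein lipase, differed least, by 0.25 in each comparison. Of the 7 fibroblast or stromal markers, 5 were above DMSO on the Y-27632 array (median difference 0.06), where 50.4% of all genes were. On the Mkl1 siRNA array 6 were below control siRNA (median difference -0.31), where 5775 of the 11600 measured genes were. Col1a1, a collagen chain, was at -1.05 in the latter comparison. Dcn, the proteoglycan decorin, differed by 0.95 and 0.60, and control siRNA was below DMSO, at -2.07. Sox9 differed by 0.35 and -1.05. Array controls that read 18S ribosomal RNA differed by medians of -0.48 and -0.48, against 0.15 between the controls. The part of these markers and controls in the differences of the members was not tested. In RNA from whole cultures, more cells that express a gene and more RNA of it per cell cannot be told apart.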

How the data were processed

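Total RNA of mouse DFAT cells was measured on 4 single-colour Affymetrix mouse arrays, 1 for each group named in the sample titles. The deposited table holds 1 log2 signal for each probe set and array, which the authors obtained with RMA, according to the submitters' processing notes. The RMA version is not given in the sources used. The scale was inferred from the range of 2.02 to 14.6. RMA compresses differences near background and equalises the arrays' distributions, so a change in total RNA per cell cannot be seen.

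Of 45101 probe sets, 34945 with 1 gene symbol in the platform annotation (control probe sets left out) were used, with symbols updated through a RefSeq gene table of GRCm38.p6. Where several probe sets read a gene, the one with the highest mean signal was used. Members are named in full, and of each further list the 3 genes with the highest and 2 with the lowest mean of both treatment differences, with 6 regulators (Pparg, Ppara, Ppard, Ppargc1a, Ppargc1b and Acacb). Nrip1 was added after the values had been seen. Members and lists were chosen with earlier results of these data known, and some listed genes are not reported here.

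With 1 array per group no test was made, and precision is limited by the number of arrays. Counts of genes past 1.5-fold or 2-fold are set beside those over all 11600 measured genes. The alternatives tried were averaging a gene's probe sets, leaving out probe sets ending in _s_at, _x_at or _a_at, no filter or one at the 75th percentile (8.08), median centring, loess (span 0.3), a 2-fold limit and the other control array. Differences were computed with Python 3.11.15, pandas 2.3.3 and statsmodels 0.14.6 and the calculation was tested on simulated data.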

Additional observations from a re-analysis of the deposited data

How the results depend on the processing

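The class medians and the counts at 1.5-fold, 10 results in all, were recomputed under 9 alternatives. A median counted as moved from 0.1 on the log2 scale, and a count from a factor of 1.5. Of 84 recomputed values 70 did not move, 14 moved and none changed sign. No filter, the filter at the 75th percentile, median centring, loess and leaving out Ehhadh, an alternative chosen after seeing the data, moved none of them. The other control array moved 6, namely the medians for Mkl1 siRNA to 0.48 (mitochondrial oxidation), 0.44 (peroxisomal oxidation) and 0.39 (peroxins), that of peroxisomal oxidation for Y-27632 to 0.0099, and the members 1.5-fold higher to 14 with Mkl1 siRNA and 1 with Y-27632. With a 2-fold limit they numbered 1 and 0. When the probe sets of a gene were averaged, the Mkl1 siRNA medians were 0.45 for peroxisomal oxidation, over 7 genes as Acox3 then missed the filter, and 0.17 for peroxins. Without probe sets ending in _s_at, _x_at or _a_at they were 0.49 for peroxisomal oxidation and 0.071 for peroxins, and the Y-27632 medians were 0.37 and 0.031. Among single members counted at 1.5-fold, Pex16 with Y-27632 changed sign in that setting, to -0.24. No leave-one-out was possible with 1 array per group. No paired analysis was possible because each group has 1 array. Signals near background, as for Ehhadh with either control, limit what the ratios can show.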
